A study of Mus musculus with 6 samples.

Results

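The contractile genes of striated muscle were followed as a set of 35 genes among the 28034 gene names on the array. They were chosen by name, as the myosin, actin, troponin, tropomyosin and Z-disc genes of the sarcomere with 4 genes of calcium handling, energy supply and the muscle intermediate filament, and all 35 had at least 1 probe. RNA came from the anterior presomitic mesoderm and somites I-IV of Paraxis-/- and WT mouse embryos of strain C57BL/6J at embryonic day 9.5, and Paraxis is the transcription factor made by Tcf15. Each pool held tissue of 5 embryos, and each of 3 Paraxis-/- pools shared 2 dye-swapped two-colour arrays with 1 WT pool. The pairs are called A, B and C after their WT pool. Pair A was on slide 1, and pairs B and C were on slide 2. The labels do not say how the Paraxis allele was made.

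The sarcomere is the repeating unit of striated muscle, in which thick filaments of myosin pull on thin filaments of actin. Calcium acts through troponin and tropomyosin on the thin filament to let myosin bind. Many of these proteins come in skeletal and cardiac forms, and embryonic skeletal muscle makes several of the forms that the adult uses in heart. In the mouse embryo the newest somites hold little or no differentiated muscle, which forms later in the myotome of more mature somites, while the heart already beats. The comparison therefore asks what contractile RNA this tissue held, whether its level differed without Paraxis, and whether skeletal and cardiac forms differed from each other.

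Every ratio divides Paraxis-/- by WT and is given as its log2, so 1 unit is a doubling, and a gene's ratio is the mean of 3 pairs with its standard error (SE) from limma. Levels are normalized log2 signals of 1 probe, comparable between pools but not between probes. Tcf15 itself had a log2 ratio of -5.41 (SE 0.09, n = 3 pairs, limma adjusted p = 0.000534), with -5.23, -5.48 and -5.52 in pairs A, B and C. Between 28683 and 31795 spots per array were well above background in the Paraxis-/- channel and between 27080 and 30982 in the WT channel. Of the 13 listed markers of presomitic mesoderm and somite, 12 were measured above background, as the labelled tissue should give. In bulk tissue, fewer cells of a type and less RNA per cell cannot be told apart.

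Contractile RNA was detectable but no member passed the test. Of the 35 genes, 31 were tested, each having a probe clearly above background in 4 or more of 6 measurements in one genotype. The 4 others were Neb, the giant thin-filament ruler nebulin, Mybpc1, the slow skeletal myosin-binding protein C, Ckm, the muscle creatine kinase, and Myh6, the alpha cardiac myosin heavy chain. No member had a limma adjusted p under 0.05, against 4 of all 19335 genes tested, or 0.0207%. At an unadjusted p under 0.05 there was 1 member of 31, or 3.23%, against 5.07% of all genes. Myh8 and Ryr1 were negative in all 3 pairs, 6.45% of members against 12.2% of all genes. Mybpc3, Casq2 and Tpm1 were positive in all 3 pairs, 9.68% of members against 13.5% of all genes. None of these shares exceeded its background. The median ratio was -0.03 over members and 0.00 over all genes.

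**Figure D1:**
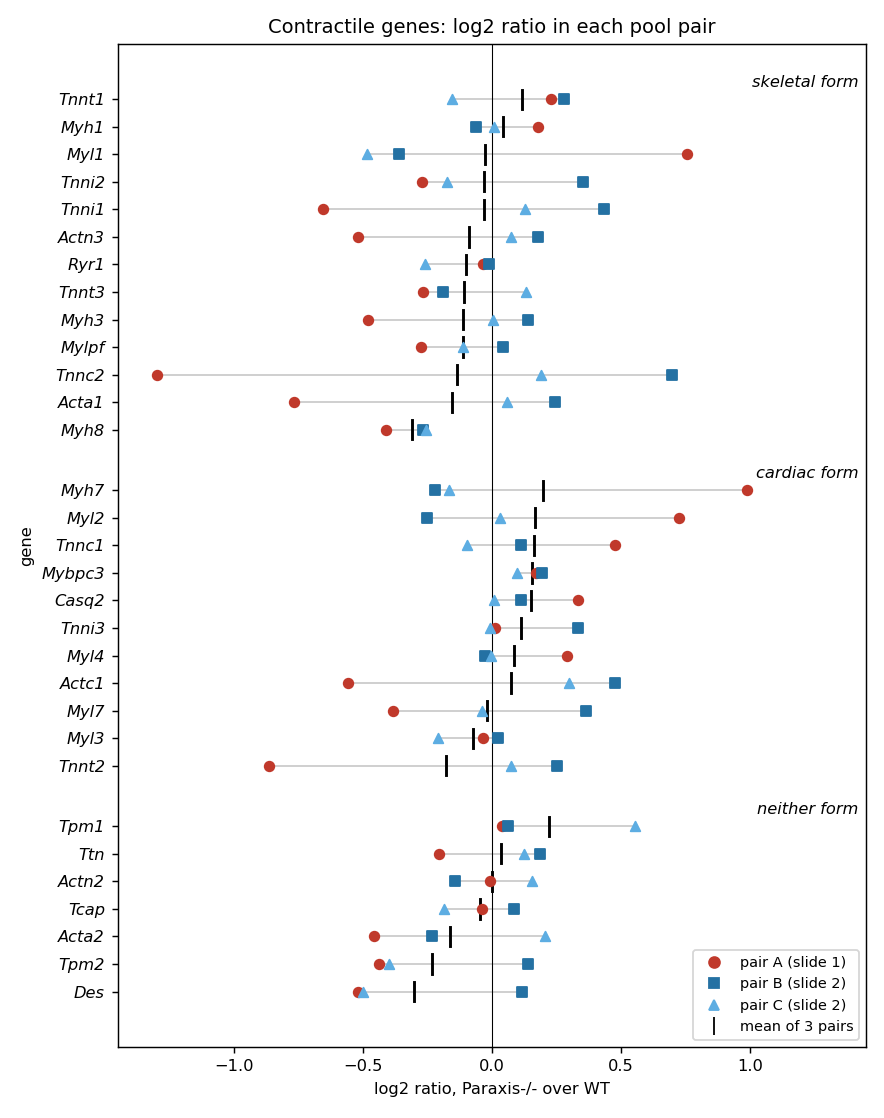
Each row is 1 of the 31 tested genes, grouped by form and ordered by mean ratio, and the horizontal axis is the log2 ratio of Paraxis-/- over WT. Symbols are the 3 pool pairs and the black tick is their mean. In 11 rows the red circle of pair A lies on one side of 0, at -1.30 for Tnnc2 and at 0.99 for Myh7, and the symbols of pairs B and C lie on the other.

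The difference between skeletal and cardiac forms rested on pair A. The 13 tested skeletal-form genes had a median ratio of -0.10, and 11 of them were negative, or 84.6%, against 48.4% of all genes. The 11 tested cardiac-form genes had a median of 0.11, and 8 of them were positive and 3, or 27.3%, negative. The 7 tested genes of neither form had a median of -0.05. In the order A, B, C, the skeletal-form median of a pair was -0.28, 0.14 and 0.00, and the cardiac-form median was 0.17, 0.11 and -0.00. Subtracting the cardiac from the skeletal median left -0.45, 0.03 and 0.01, with a mean of -0.14 ± 0.27 (SD, n = 3 pairs). Without pair A the medians were 0.06 for skeletal and 0.06 for cardiac forms.

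Within the set, pair A ran against the other pairs. Across the 31 members, Pearson's r of the pair ratios was -0.61 for A with B, -0.24 for A with C and 0.28 for B with C. For the 19262 genes that every pair measured, the same values were 0.11, 0.07 and 0.18. Genes are not independent points, and pairs B and C share a slide. In 11 members, or 35.5%, pair A had the opposite sign to both other pairs, against 25.2% of all genes. In 8 of these pair A was the negative one and in 3 the positive one. Among all genes with such opposite signs, it was negative in 2664 of 4854 and positive in 2186. In 11 members, again 35.5%, pair A lay at least 0.5 from the mean of pairs B and C, against 8.71% of all genes, a distance chosen after the values were seen. In other lists the share was 30.4% of the tested myogenic genes, 30.0% of the smooth muscle markers and 29.4% of the heart markers. It was lower, at 17.1%, in the 35 tested further genes of sarcomere and muscle. Of the 7 tested members of neither form, 0 reached that distance. The median SD of the 3 pair ratios was 0.29 in members, 0.30 in smooth muscle markers and 0.14 over all genes. It was 0.15 in myogenic genes, 0.13 in the further sarcomere genes and 0.12 in heart markers. Because pair A was the only pair on slide 1, which was also read with another version of the scanner software, the slide and the pools of pair A cannot be told apart.

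**Figure D2:**
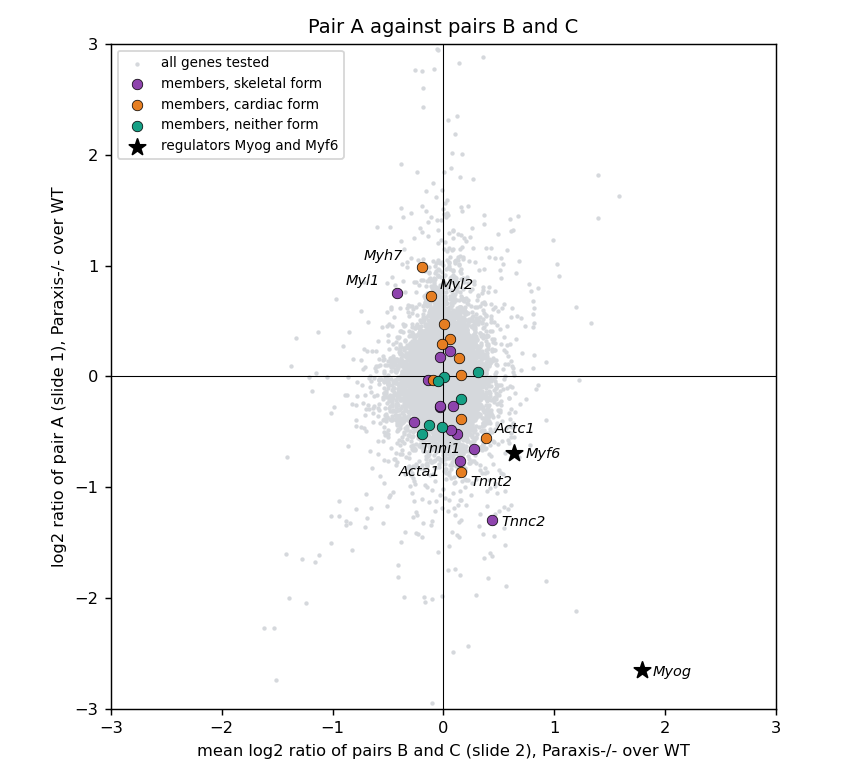
Each point is a gene, with the mean log2 ratio of pairs B and C on the horizontal axis and that of pair A on the vertical axis, both Paraxis-/- over WT. Grey points are all genes tested, of which 13 lie outside the axes, and coloured points are members by form. Tnnc2, Tnnt2, Acta1, Tnni1 and Actc1 lie at the lower right with the regulators Myog and Myf6, and Myl1, Myh7 and Myl2 at the upper left.

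Most members had the same sign on both arrays of a pair. With the dyes exchanged, the members' ratios on the 2 arrays of pair A had r = 0.80 over 31 genes, and 25 had the same sign. In pair B r was 0.68 with 23 of the same sign, and in pair C 0.64 with 21. The same counts over all genes were not made, so these do not set members apart from other genes. The ratios of pair A spread more widely, which by itself raises r. The median absolute difference between the 2 arrays was 0.18, 0.16 and 0.17 in pairs A, B and C, and in pair A it reached 0.75 for Actn3, 0.66 for Myl3 and 0.65 for Ryr1. These arrays hold the same RNA, so this describes the labelling and scanning and not the pools.

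**Figure D3:**
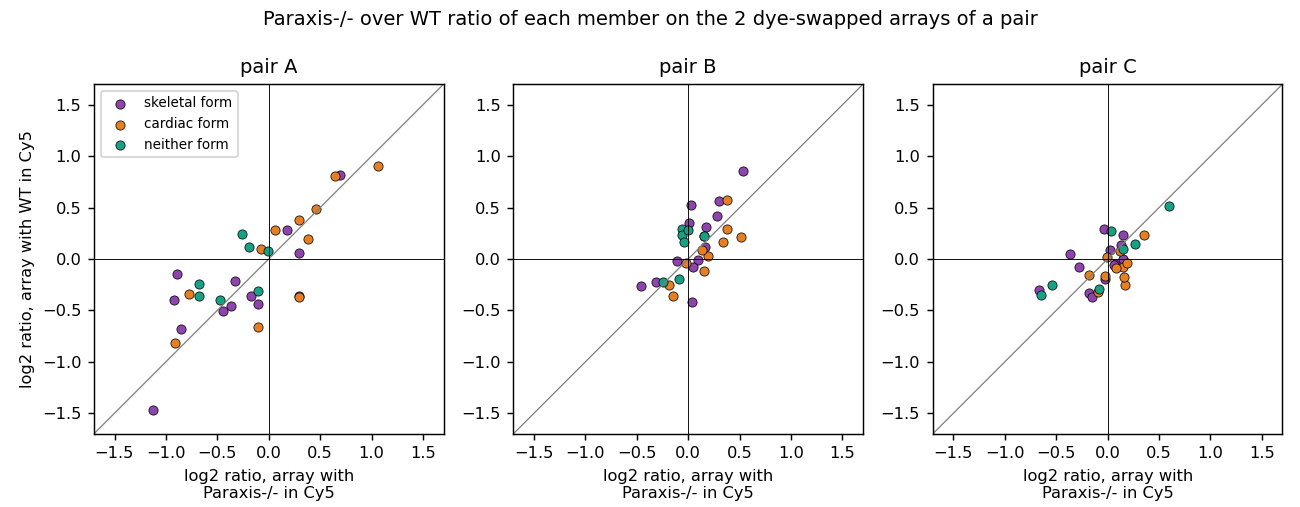
Each point is a member, with its log2 ratio of Paraxis-/- over WT on the array with Paraxis-/- in Cy5 on the horizontal axis and on the array with WT in Cy5 on the vertical axis. The 3 panels are the pairs and the grey line is equality. Members spread farthest along the line in pair A, where the 2 arrays had r = 0.80.

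Among the thick-filament genes, Myh8 was the one with an unadjusted p under 0.05. It encodes the perinatal myosin heavy chain of developing skeletal muscle. Its log2 signal was 7.14, 7.18 and 7.09 in the Paraxis-/- pools of pairs A, B and C, against 7.55, 7.45 and 7.34 in the WT pools. The levels did not overlap, with every Paraxis-/- pool below every WT pool. Of the 31 tested members, 3 had levels without overlap in either direction, namely Myh8, Mybpc3 and Casq2. The share over all genes was not counted, so the lack of overlap does not set these members apart. The log2 ratio of Myh8 was -0.31 (SE 0.07, n = 3 pairs, limma unadjusted p = 0.00768, adjusted p = 0.770), or 1.24-fold lower, with -0.41, -0.27 and -0.26 in the pairs. It was negative under all 15 other ways of processing, between -0.67 and -0.26, with adjusted p never below 0.109. Several of these ways leave its mean at -0.31 by design. With all 3 pairs negative, leaving out 1 pair cannot change the sign either. The second Myh8 probe was not well above background in any measurement of either genotype, so the result rests on 1 probe. Both probes are shown because they differ in what they could detect. The first lies near the end of the message, where skeletal myosin heavy chains resemble each other, and its capitals mark the 19 bases that are also in a probe of Myh1, the adult fast IIx chain. That Myh1 probe was not well above background in any measurement. Another Myh1 probe was, in 6 of 6 Paraxis-/- and 5 of 6 WT measurements. Only probes of members were compared with each other, so the match of the Myh8 probe to other transcripts was not searched.
Myh8, chr11:67121925-67121984 (mm9, + strand): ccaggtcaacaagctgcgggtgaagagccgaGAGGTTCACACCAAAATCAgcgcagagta
Myh8, chr11:67098388-67098447 (mm9, + strand): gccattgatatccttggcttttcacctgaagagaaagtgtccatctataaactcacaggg

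The other myosin heavy chains differed by pair. Myh7, the slow or beta cardiac chain, had log2 signals of 8.16, 7.79 and 7.97 in the Paraxis-/- pools and 7.17, 8.02 and 8.13 in the WT pools. WT pool A was the low one, and the groups overlapped. Its ratio was 0.99, -0.22 and -0.17 in the pairs, with a mean of 0.20 (SE 0.26, limma adjusted p = 0.971). A second Myh7 probe, which shares 55 bases with the first and so is not an independent reading, gave 0.77, -0.11 and -0.03. Myh3, the embryonic skeletal chain, had 6.81, 6.86 and 6.78 in the Paraxis-/- pools and 7.29, 6.72 and 6.78 in the WT pools, where pool A was the high one. Myh1 had a ratio of 0.04 on a dim probe, with all pairs between -0.06 and 0.18. Myh6 was well above background in at most 2 of 6 Paraxis-/- measurements and 0 of 6 WT measurements.

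The myosin light chains, which sit at the neck of the myosin head, differed between pairs as well. Myl1, the fast skeletal alkali light chain, had log2 signals of 9.18, 9.37 and 9.32 in the Paraxis-/- pools and 8.43, 9.73 and 9.81 in the WT pools. The 3 Paraxis-/- pools lay within 0.19 of each other, while WT pool A was 1.38 below the highest WT pool. The ratio was 0.76, -0.36 and -0.48 in the pairs, and the mean of -0.03 (SE 0.26) hides this. Myl2, the ventricular and slow regulatory light chain, had ratios of 0.73, -0.25 and 0.03. Mylpf, the fast skeletal regulatory chain, had -0.28, 0.04 and -0.11. Myl4, the atrial and embryonic alkali chain, had 0.29, -0.03 and -0.00, and Myl7, the atrial regulatory chain, had -0.38, 0.37 and -0.04. Myl7 signals were 10.19, 10.70 and 10.37 in the Paraxis-/- pools and 10.57, 10.34 and 10.41 in the WT pools, which overlapped.

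Myl3, the ventricular and slow skeletal alkali light chain, was read by 2 probes that disagreed in pair A. The brighter probe had log2 signals of 8.89, 9.06 and 9.06 in the Paraxis-/- pools and 8.92, 9.04 and 9.27 in the WT pools, with ratios of -0.04, 0.02 and -0.21. The dimmer probe had 8.28, 8.02 and 8.09 in the Paraxis-/- pools and 7.19, 8.23 and 8.28 in the WT pools. Its ratios were 1.09, -0.21 and -0.19, so that pair A was high on this probe and near 0 on the other. The probes are shown because they read different stretches of the gene. The brighter one lies in 1 exon and has 68.3% G and C, and the dimmer one has 48.3% G and C and spans 295 bases of the genome, so it crosses an intron. Which one follows the transcript better was not tested.
Myl3 brighter probe, chr9:110666325-110666384 (mm9, + strand): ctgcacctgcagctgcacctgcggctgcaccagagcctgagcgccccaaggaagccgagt
Myl3 dimmer probe, chr9:110671632-110671926 (mm9, + strand): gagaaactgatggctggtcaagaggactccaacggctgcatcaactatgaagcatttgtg

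Mybpc3, the cardiac myosin-binding protein C that sits on the thick filament, had the smallest spread between pairs of all members, on a dim probe. Its log2 signal was 6.96, 7.02 and 7.002 in the Paraxis-/- pools, against 6.78, 6.83 and 6.90 in the WT pools, without overlap. The ratio was 0.17, 0.19 and 0.10 in the pairs, with a mean of 0.15 (SE 0.07, limma unadjusted p = 0.0718, adjusted p = 0.950). Under the 15 other ways of processing, the mean lay between 0.12 and 0.27.

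Among the thin-filament genes, the 3 muscle actins did not share 1 pattern. Acta1, the skeletal alpha-actin, had log2 signals of 7.12, 7.58 and 7.49 in the Paraxis-/- pools and 7.89, 7.34 and 7.43 in the WT pools. Its ratio was -0.77, 0.24 and 0.06, with a mean of -0.16 (SE 0.21, limma adjusted p = 0.973). Actc1, the cardiac alpha-actin that is also the first alpha-actin of embryonic skeletal muscle, had 9.08, 9.73 and 9.67 in the Paraxis-/- pools and 9.63, 9.25 and 9.38 in the WT pools. Its ratio was -0.56, 0.48 and 0.30, with a mean of 0.07 (SE 0.21, adjusted p = 0.991). For both genes the Paraxis-/- pool of pair A was the lowest of all 6 pools and WT pool A the highest of the WT pools. Acta2, the smooth muscle alpha-actin, had 13.04, 12.67 and 13.02 in the Paraxis-/- pools and 13.50, 12.90 and 12.82 in the WT pools on its brightest probe, with ratios of -0.46, -0.23 and 0.21. Of its 5 probes 4 passed the filter, and these did not all have a mean ratio of the same sign. The probes of the 3 actins are shown because their proteins are nearly identical, and each read a different stretch. No run of 15 or more bases was shared between them, while their match to other genes was not searched.
Acta1, chr8:126416197-126416256 (mm9, - strand): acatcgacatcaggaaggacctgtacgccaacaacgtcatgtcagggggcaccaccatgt
Actc1, chr2:113874011-113874934 (mm9, - strand, across an intron): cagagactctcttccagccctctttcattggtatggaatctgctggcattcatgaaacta
Acta2, chr19:34322995-34326249 (mm9, - strand, across an intron): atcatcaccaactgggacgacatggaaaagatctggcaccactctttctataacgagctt

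The troponins held the widest swing of any member. Tnnc2, the fast skeletal calcium-binding subunit, had log2 signals of 7.28, 8.13 and 7.56 in the Paraxis-/- pools and 8.58, 7.44 and 7.37 in the WT pools. WT pool A was the highest and the Paraxis-/- pool of pair A the lowest of the 6. The ratio was -1.30, 0.70 and 0.19, with a mean of -0.14 (SE 0.39, limma adjusted p = 0.990) and an SD of 1.04 between pairs. Tnnt2, the cardiac and embryonic tropomyosin-binding subunit, had 8.08, 8.09 and 7.80 in the Paraxis-/- pools and 8.94, 7.84 and 7.73 in the WT pools. Its ratio was -0.86, 0.25 and 0.07, and here only the WT pool of pair A stood apart. Tnni1, the slow inhibitory subunit, had ratios of -0.66, 0.43 and 0.13, and its second probe had -0.35, 0.31 and 0.06.

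The remaining troponins had smaller differences between pairs. Tnni2, the fast inhibitory subunit, had log2 signals of 9.35, 9.72 and 9.16 in the Paraxis-/- pools and 9.62, 9.37 and 9.34 in the WT pools, with ratios of -0.27, 0.35 and -0.18. Tnnt1, the slow skeletal tropomyosin-binding subunit, had 0.23, 0.28 and -0.16, and Tnnt3, the fast one, had -0.27, -0.19 and 0.13. Tnnc1, the slow and cardiac calcium-binding subunit, had 0.47, 0.11 and -0.10. Tnni3, the cardiac inhibitory subunit, had 0.01, 0.33 and -0.01. The slow and cardiac calcium-binding subunit and its fast counterpart Tnnc2 thus had opposite signs in pair A.

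**Figure D4:**
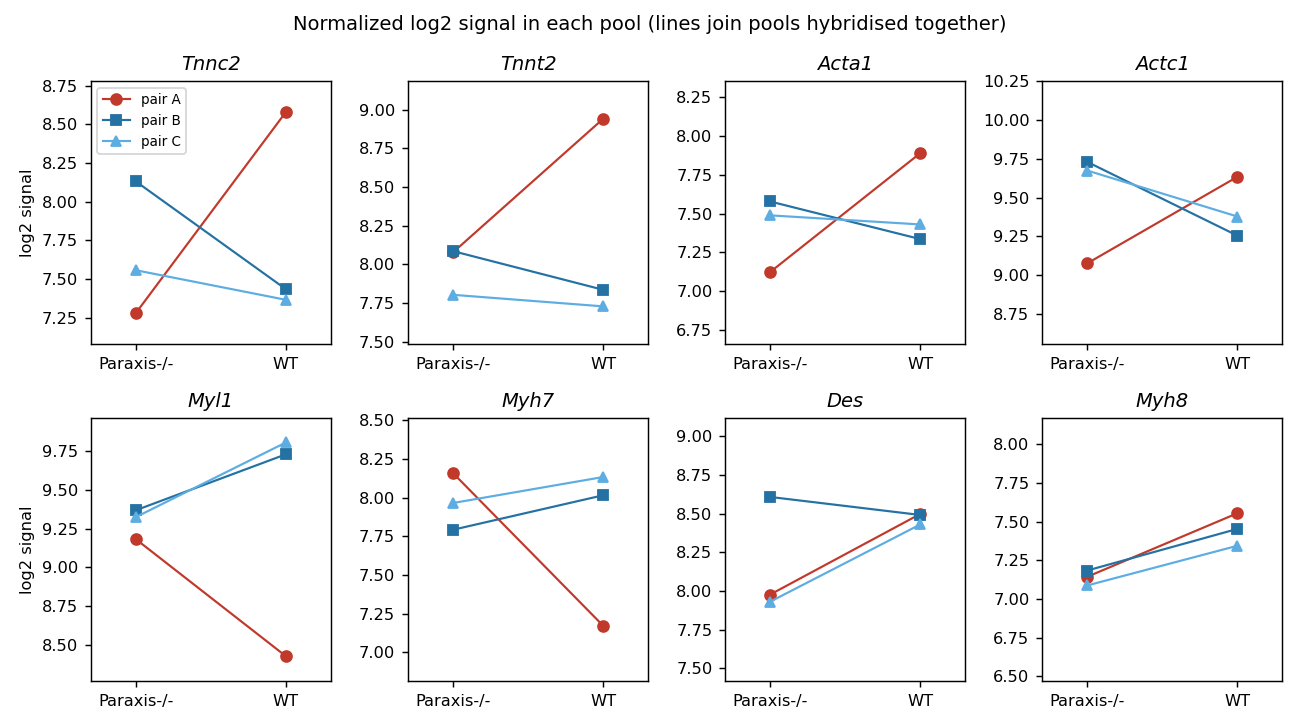
Each panel is a gene, with normalized log2 signal on the vertical axis and Paraxis-/- pools left of WT pools, and lines join the pools hybridised together. All panels span the same number of log2 units. WT pool A is the highest WT pool for Tnnc2, Tnnt2, Acta1 and Actc1 and the lowest for Myl1 and Myh7, while for Myh8 the 3 lines run alike.

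Tropomyosins, which lie along actin, and the desmin filament gave the largest mean ratios after Myh8. Des encodes desmin, the muscle intermediate filament protein. Its log2 signal was 7.98, 8.61 and 7.93 in the Paraxis-/- pools, against 8.50, 8.49 and 8.43 in the WT pools. Both Paraxis-/- pools of pairs A and C lay below all WT pools and that of pair B lay above them. The ratio was -0.52, 0.12 and -0.50, with a mean of -0.30 (SE 0.15, n = 3 pairs, limma adjusted p = 0.950). The mean was negative under all 15 other ways of processing, between -0.51 and -0.19, though several of these ways leave it unchanged by design. Tpm2 had 10.89, 11.20 and 10.78 in the Paraxis-/- pools and 11.33, 11.06 and 11.18 in the WT pools, with ratios of -0.44, 0.14 and -0.40. In both Des and Tpm2, pairs A and C were negative and pair B positive, as they were in the troponin gene Tnni2. Tpm1, which smooth and non-muscle cells also make, had 13.62, 13.26 and 13.86 in the Paraxis-/- pools and 13.58, 13.20 and 13.31 in the WT pools. Its ratio was 0.04, 0.06 and 0.56, so its mean of 0.22 (SE 0.13, adjusted p = 0.950) came mainly from pair C, and 2 of its other probes had -0.33 and -0.34 in pair A.

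The Z-disc, titin and calcium genes had mean ratios between -0.10 and 0.15. Actn3, the fast-fibre alpha-actinin, had log2 signals of 7.77, 8.05 and 7.70 in the Paraxis-/- pools and 8.29, 7.87 and 7.63 in the WT pools, with ratios of -0.52, 0.18 and 0.07. Actn2, the alpha-actinin of heart and skeletal muscle, had a mean ratio of 0.00, and Tcap, the titin cap, had -0.05. Ttn encodes titin, the elastic protein that spans from the Z-disc to the middle of the sarcomere. Only 2 of its 9 probes passed the filter, and the one used had -0.21, 0.19 and 0.12. Ryr1, the calcium release channel of skeletal muscle, had -0.03, -0.01 and -0.26 on its brightest probe, and its 2 other probes were not negative in every pair. Casq2, the cardiac calsequestrin that stores calcium, had log2 signals of 6.83, 6.71 and 6.69 in the Paraxis-/- pools and 6.50, 6.59 and 6.68 in the WT pools, without overlap, and ratios of 0.33, 0.11 and 0.01. This probe was dim too, and under the 15 other ways of processing the mean ratio of Casq2 lay between 0.06 and 0.53.

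Of the genes that control muscle formation, Myog was negative in pair A and positive in pairs B and C. The same signs were seen in 8 of the 31 members, beside 2664 of the 19262 genes that every pair measured. Myogenin, the product of Myog, is the basic helix-loop-helix factor of muscle differentiation. Its log2 signal was 6.97, 9.37 and 8.28 in the Paraxis-/- pools, against 9.62, 7.33 and 6.73 in the WT pools. The ratio was -2.65, 2.04 and 1.55, with a mean of 0.31 and a limma adjusted p of 0.991. Myf6, another factor of that family, had -0.69, 0.61 and 0.68. Myod1 had -0.05, 0.11 and -0.04, and the Myf5 probe did not rise clearly over background in a single measurement. Both Myog and Myf6 thus had pair A negative and pairs B and C positive, like Tnnc2, Acta1, Actc1, Tnnt2, Tnni1 and Actn3 and unlike Myl1 and Myh7. These genes were singled out after their values were seen. Also picked by its values, the neural tube marker Dbx1 had -2.12, 1.08 and 1.31, so these signs occurred outside muscle genes too. By pair, the median of the 8 neural tube markers was -0.24, 0.13 and 0.29, while 2 of the 8 were positive in all 3 pairs.

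Over the 27 listed myogenic regulators and early muscle genes, 23 were tested, 0 passed the adjusted p, 0 were higher and 4 lower at an unadjusted p under 0.05, or 17.4% against 5.07% of all genes, and their median was -0.01. Those 4 were negative in every pair. Eya2, a cofactor of sine oculis homeobox proteins, had ratios of -1.12, -0.81 and -1.07 in the pairs (adjusted p = 0.179). Dmrt2, a dermomyotome transcription factor, had -1.51 (adjusted p = 0.359) with -2.05, -1.43 and -1.04. Pax3, which marks muscle progenitors, had -0.49 with -0.70, -0.39 and -0.39. Cdh15, the adhesion molecule M-cadherin of muscle cells, had -0.60 with -1.27, -0.19 and -0.35. Of the 23, 10 had pair A opposite in sign to both other pairs, or 43.5%, against 25.2% of all genes. In 9 of the 10 pair A was the negative one.

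Among 51 further genes of the sarcomere, of excitation and contraction and of muscle metabolism, 35 were tested and 0 passed the adjusted p. At an unadjusted p under 0.05, 1 was higher and 0 were lower, or 2.86% against 5.07% of all genes, and the median was 0.02. That gene was Pdlim5, a Z-disc protein also made outside muscle, at 0.26. Next by p were Cryab, a small heat-shock protein, at 0.24, Flnc, the muscle filamin, at 0.20, and Tmod1, which caps actin filaments, at 0.26. In 9 of the 35 pair A was opposite to both other pairs, or 25.7%, beside the 25.2% of all genes.

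Heart markers were measured beside the cardiac forms, since heart tissue could be carried along in a dissection. Of 22 listed genes 17 were tested, with a median ratio of 0.03. Tbx20, Bmp10 and Pln were not well above background in any measurement, Sln in 1 of 6 Paraxis-/- and 0 of 6 WT measurements, and Ryr2 in 3 and 1. Nkx2-5, the early heart homeobox factor, was above background in 5 of 6 Paraxis-/- and 4 of 6 WT measurements, with a ratio of -0.05. The log2 of the summed signal of the 17 genes was 13.98, 13.72 and 13.85 in the Paraxis-/- pools and 13.36, 13.95 and 13.95 in the WT pools. This sum adds levels of different probes and so follows the brightest. That was Cited1 in every pool, with 13.41, 12.76 and 12.98 in the Paraxis-/- pools and 12.26, 13.28 and 13.16 in the WT pools. At an unadjusted p under 0.05, 2 were higher and 0 lower, or 11.8% against 5.07% of all genes. Tbx5, a T-box factor of heart and forelimb field, had a ratio of 0.50 (limma unadjusted p = 0.00137, adjusted p = 0.473) with 0.61, 0.38 and 0.52 in the pairs. Myocd, a cofactor of heart and smooth muscle genes, had 0.70 (adjusted p = 0.933) with 1.37, 0.52 and 0.21. Wnt2 had -0.78, with -1.99, 0.20 and -0.55 in the pairs, and Hey2 had 0.10. In pair A 8 of the 17 were negative and 9 positive, with a median of 0.01. The widest values there ran both ways, with Cited1 at 1.15 and Nppb at 0.67 but Wnt2 at -1.99 and Popdc2 at -0.52. The part of heart tissue in the cardiac-form ratios was not tested beyond these values.

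Markers of other tissues differed from list to list. All 10 smooth muscle markers were tested and 0 had an unadjusted p under 0.05, with Myl9 at 0.18, Mylk at -0.18, Myh11 at -0.05 and Actg2 at -0.09, a median of 0.01 and summed signals of 13.72 to 14.46 in Paraxis-/- and 14.01 to 14.20 in WT pools. Of the 10 primitive blood markers, all 10 had positive mean ratios, beside 9974 of all 19335 genes. At that p 3 were higher, or 30% against 5.07% of all genes, namely Hba-a1 at 0.67, Hba-x at 0.55 and Alas2 at 0.70. Epor, the next, was at 0.47. The median of the 10 was 0.48, but by pair it was 0.41, 1.01 and -0.13 in A, B and C. Their summed signal was 17.60, 17.90 and 17.30 in the Paraxis-/- pools and 17.31, 16.55 and 17.29 in the WT pools. Of 8 tested endothelial markers 1 was higher, or 12.5%, namely Kdr at 0.44, with Tie1 at -0.10, Cdh5 at -0.16 and Tek at 0.15. The median of these 8 was -0.08, with summed signals of 12.76 to 13.22 in Paraxis-/- and 12.97 to 13.14 in WT pools. The 8 neural tube markers gave 0 with a median of 0.09 and summed signals of 13.63 to 13.67 in Paraxis-/- and 13.34 to 14.02 in WT pools, with Irx3 at 0.09, Sox2 at 0.12, Olig2 at -0.18 and Pax6 at 0.13. Of the 12 tested somite genes, 1 was higher and 6 lower at an unadjusted p under 0.05, or 58.3% against 5.07% of all genes. The lower ones include Tcf15, the gene of Paraxis itself, whose fall was given by the genotype. Pax1 passed the adjusted p with a ratio of -4.35, like Tcf15, and Meox2 at -1.59 and Uncx at -0.78 were next by p. The part of blood, vessel or neural RNA in the contractile ratios was not tested.

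Promoters were read because several members had the same signs by pair and because Myog and Tcf15 encode basic helix-loop-helix factors, which bind the E-box, CANNTG, a pattern that reads the same on both strands. RefSeq promoters (GRCm38.p6) were matched for 30 of the 35 members. In the 250 bases before the first listed start, 26 of the 30 held an E-box, or 86.7%, against 66.0% of 27025 genes, and 11 held 2 or more, or 36.7%, against 31.7%. A match is a description of the letters and not a binding site. The members with the largest negative ratios in pair A did not stand alike, since Tnnc2 and Acta1 each had 2 matches, Tnnt2 and Tnni1 each had 4 and Actc1 had 0. Myl1 and Myh7, which were high in pair A, each had 1. The upstream sequences of Tnnc2 and Acta1 are shown as examples, with the E-boxes in capitals.
Tnnc2, chr2:164779735-164779984 (GRCm38.p6, - strand): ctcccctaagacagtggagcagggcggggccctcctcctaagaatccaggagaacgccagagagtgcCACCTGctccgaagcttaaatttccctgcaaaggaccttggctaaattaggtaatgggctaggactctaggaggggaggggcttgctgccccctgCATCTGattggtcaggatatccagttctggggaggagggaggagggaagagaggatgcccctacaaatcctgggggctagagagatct
Acta1, chr8:123894776-123895025 (GRCm38.p6, - strand): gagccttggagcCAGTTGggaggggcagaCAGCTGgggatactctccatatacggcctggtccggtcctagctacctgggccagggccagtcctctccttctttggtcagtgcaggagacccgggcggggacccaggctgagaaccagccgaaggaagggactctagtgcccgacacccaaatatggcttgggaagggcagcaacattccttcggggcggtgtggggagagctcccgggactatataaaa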

How the data were processed

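Per the labels' protocols, 250 ng of total RNA of integrity number 7.9 or above was labelled with either dye. The authors deposited spot intensity files from Agilent Feature Extraction, version 10.7.3.1 on slide 1 and 10.5.1.1 on slide 2 per the file headers (the submitters' processing notes name 8.5.1.1), and a matrix of log10 ratios of Cy5 over Cy3 equal to the scanner's own. Probe coordinates are in mm9, per the file headers. From the median spot and background intensities, which all 6 arrays have (means had been planned), normexp (offset 50) and loess were run in R 4.3.3 with limma 3.58.1, and files were read with version 1.17.8 of the data.table package. Control spots (1639) had weight 0, between 438 and 620 outlier spots an array were dropped, and no member's spot was saturated. Spots were averaged per probe, dye swaps per pair, and levels additionally normalized with Aquantile. Probes well above background in at least 4 of 6 measurements of either genotype were kept (28639 of 41174, and 48 of 71 member probes), with the brightest kept probe per gene. Gene names were updated through RefSeq for 26690 probes by accession, 5189 by symbol and 952 by synonym, while 8343 kept the file's name.

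Pair ratios (n = 3) were tested against 0, two-sided, with lmFit and eBayes and Benjamini-Hochberg adjustment over 19335 genes, at a threshold of 0.05. Channels were tied to genotypes by the labelled dyes. Titles and descriptions disagree on the pools of some arrays, and titles were used. Across genes, the arrays of opposite dye that titles put together correlated at 0.31, 0.27 and 0.57, against -0.13 to 0.09 for arrays of opposite dye from different pairs. After centring, which pushes different pairs below 0, these were 0.38, 0.62 and 0.61 against -0.42 to -0.06. The members and all lists were chosen with earlier results of these data known. All members are named, with values in every pool for those with a ratio of at least 0.3 or an unadjusted p under 0.05, for the 8 brightest and for others chosen after their values were seen. Of each further list the 4 genes with the smallest p are named. The fit was also run on simulated data with independent errors in the 3 pairs. Those data lack the slide that pairs B and C share, so they do not test the fit for it. Alternatives covered background, normalization, filter, probes, deposited ratios, pairing, dye swaps, slide and each pair left out.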

Additional observations from a re-analysis of the deposited data

How the results depend on the processing

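No member passed the adjusted p in the limma fit as reported or under any of 15 alternatives, and the lowest adjusted p of a member was 0.109, for Myh8. Of the 31 members, 12 kept the sign of their mean ratio under all alternatives and 19 had the other sign under at least 1. Several alternatives leave a member's mean ratio unchanged by design, and the deposited ratios repeat Agilent's processed signals. The alternatives are therefore not independent checks of the sign. The skeletal-form minus cardiac-form median was -0.21 from the mean ratios and 0.00 without pair A, and leaving out one pair at a time moved it between -0.36 and 0.00. The skeletal-form median turned positive, at 0.06, without pair A. Over all genes, 4 were called as reported, against 18 with ratios scaled between arrays, 6 with Agilent's processed signals or the deposited ratios, 40 in the fit of 6 arrays with pool pair as a replicate block, 68 without that block and 76 with slide as a block, and in each of these the count of members was 0. Without pair A, B or C, 2, 0 and 2 genes were called. With 3 pairs, SEs of members lay between 0.07 and 0.39, and 4 members were too dim to test.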
